A study of Mus musculus with 6 samples.

Results

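The forkhead, Sox, Klf and Tead factors are 4 families of DNA-binding proteins, and their RNA levels were compared among 3 mouse mammary cell lines. Members were the genes of the deposited table whose symbol begins with Fox (letters a to s), Sox, Klf or Tead followed by a digit, without Sox9 and Klf5. The rule used names and no measured value. It took 44 of the 11417 listed genes: 22 forkhead, 5 Sox, 13 Klf and 4 Tead genes. Of these 43 code for proteins. The remaining gene, Foxd2os, is a non-coding RNA named for its position opposite Foxd2, and as a tested gene it is included in the forkhead counts and medians below; it passed in no contrast. Poly(A) RNA of the lines BC44, HC11 and C57MG had been made into strand-directional libraries, 2 per line and 6 in all, from untreated cells on plastic. The study as a whole, by its title, asks how GRHL proteins and the progesterone receptor act on Wnt4. BC44 grew in RPMI1640 that held 10% serum and insulin at 5 µg/ml. HC11, a clonal line from the mammary gland of a pregnant mouse, had this medium plus EGF (epidermal growth factor) at 10 ng/ml. C57MG, an established mammary line long used to assay transformation by Wnt genes, was kept in DMEM, also at 10% serum but with insulin at 10 µg/ml. All were harvested 2 days after plating. No deletion, transgene or drug is named for any line. Line and medium cannot be told apart, and the labels do not say that the 2 libraries of a line came from separate cultures, so the p-values measure only the spread between these libraries.

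Forkhead proteins bind DNA through a winged-helix domain, and the family ranges from factors that specify mesenchyme or ciliated cells to the Foxo proteins, which insulin and growth factor signalling through PI3K and Akt keeps out of the nucleus. Sox proteins bend DNA through an HMG box and act with partner factors. Klf proteins bind GC-rich boxes through zinc fingers and either activate or, through corepressors, silence genes that their Sp relatives also bind. Tead proteins hold the DNA contacts for Yap1 and Wwtr1 (also called Taz), coactivators that the Hippo kinases exclude from the nucleus.

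Promoter sequences are shown for the 4 members with the largest differences between lines among those with a window in the RefSeq table of build GRCm38.p6, so that the motif content can be read beside the levels that follow. Each is the 250 bases before the annotated start, written from 5′ to 3′ on the gene's strand. Capitals mark the GC box bound by Klf and Sp proteins (GGGCGG, or CCGCCC on the other strand) and the Tead core (GGAATG, or CATTCC on the other strand). The windows are Sox4 at chr13:28953700-28953949 on the minus strand, Sox11 at chr12:27342719-27342968 on the minus strand, Klf12 at chr14:100149797-100150046 on the minus strand and Klf15 at chr6:90462326-90462575 on the plus strand.
Sox4: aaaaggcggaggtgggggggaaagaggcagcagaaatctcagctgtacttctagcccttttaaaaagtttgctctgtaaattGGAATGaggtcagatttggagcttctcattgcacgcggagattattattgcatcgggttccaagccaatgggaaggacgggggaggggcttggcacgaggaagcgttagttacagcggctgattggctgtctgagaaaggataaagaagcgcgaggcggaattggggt
Sox11: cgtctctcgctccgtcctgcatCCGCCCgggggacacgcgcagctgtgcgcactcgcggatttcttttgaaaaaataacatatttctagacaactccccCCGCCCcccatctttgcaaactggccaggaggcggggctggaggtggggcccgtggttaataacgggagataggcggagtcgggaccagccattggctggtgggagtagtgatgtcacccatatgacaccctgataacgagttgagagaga
Klf12: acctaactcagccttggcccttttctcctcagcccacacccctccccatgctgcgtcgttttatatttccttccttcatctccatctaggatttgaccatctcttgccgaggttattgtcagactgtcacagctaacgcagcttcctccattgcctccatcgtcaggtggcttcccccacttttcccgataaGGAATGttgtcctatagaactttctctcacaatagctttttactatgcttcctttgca
Klf15: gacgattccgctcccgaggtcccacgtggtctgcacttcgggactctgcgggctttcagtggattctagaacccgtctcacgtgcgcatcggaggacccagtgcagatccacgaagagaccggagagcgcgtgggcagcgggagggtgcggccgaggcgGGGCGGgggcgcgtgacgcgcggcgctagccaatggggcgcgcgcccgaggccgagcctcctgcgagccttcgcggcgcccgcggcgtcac
The Sox4 window held 1 Tead core, 168 bases before the start, and no GC box. The Sox11 window held 2 GC boxes, 228 and 151 bases before the start, and no Tead core. The Klf12 window held 1 Tead core, 58 bases before the start, and the Klf15 window held 1 GC box, 91 bases before the start. Neither the forkhead core (GTAAACA, or TGTTTAC on the other strand) nor the Sox core (AACAAT, or ATTGTT on the other strand) was found in any of these 4 windows. These matches are descriptions of the letters and not of binding.

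Windows were found for 30 of the 44 members, 40 windows in all, and were set beside all 32851 windows of the table, which have the same length. A GC box stood in 28 of the 40 member windows (70.0%) and in 32.7% of all windows. Counted by window the families were unlike: 12 of 14 forkhead, 10 of 12 Klf and 4 of 4 Tead windows held one, and 2 of 10 Sox windows. The 4 Tead windows were of Tead2 and Tead3 alone, and the 10 Sox windows belong to at most 5 genes. Family counts and medians therefore count some genes repeatedly. The windows also differed in base composition, with a median GC content of 62.6% for members and 52.4% for all, and of 43.4% for the Sox windows. The Tead core stood in 9 of the 40 member windows (22.5%), among them those of Sox4, Sox5, Sox6, Klf12 and Tead3, and in 12.6% of all windows. The Sox core stood in 4 of 40 (10.0%), against 9.42% of all windows, and the forkhead core in 1 of 40 (2.50%), that of Klf9, against 3.17%. Several windows belong to 1 gene and overlap, so they are not independent.

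Levels are RPKM, that is reads scaled to gene length and library depth, as the authors deposited them. The depth, estimated from the steps between low values, was 14180000 to 18480000 reads per library, and 9706 to 9895 genes per library reached 1 RPKM. The label of mammary epithelium was checked against marker genes. The 9 epithelial markers in the table summed to 5040 and 4828 RPKM in the BC44 libraries, 3137 and 2254 in those of HC11, and 137 and 65.4 in those of C57MG, where Krt14 alone reached 1 RPKM in both libraries and Cldn3 was listed at 0. Krt18 and Cldn3 were listed at 0 in BC44. The 7 mesenchymal markers summed to 250 to 380 RPKM in the BC44 and HC11 libraries and to 7321 and 7088 in C57MG, and 3 smooth muscle markers to 1.31 to 3.13 and to 124 and 154. The C57MG sum came from Acta2 and Mylk, while Tagln was lower there (0.105 and 0) than in the other 4 libraries (0.723 to 1.89). The 2 endothelial markers listed summed to at most 2.38 RPKM in any library, the only listed immune marker (Cd68) to at most 3.30 and the only listed adipocyte marker (Fabp4) to at most 8.77. Of the 4 Schwann cell and melanocyte markers looked up, 0 were matched. These marker levels move with every contrast against C57MG below, and their part in the results was not tested. In bulk RNA, fewer cells that express a gene and less RNA per cell cannot be told apart.

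Genes abundant in 1 line and low in the third line had a small signal in some libraries of the remaining line. Their level in the line where they were abundant is called the source below. Whether the small signal came from that line or from the cells of the library itself was not tested. Their median level was 0.729% of its source in C57MG replicate 1 and 0 in C57MG replicate 2 for 11 genes of BC44, and 0.666% and 2.02% in the BC44 libraries for 72 or 73 genes of C57MG. Genes of BC44 stood at 2.38% and 1.21% of their source in the HC11 libraries, and genes of HC11 at a median of at most 0.141% in any library of the other lines. The values of Sox11 and Klf12 in C57MG replicate 1 and of Klf15 in BC44 replicate 2, given below, are of the size of this signal. Whether they reflect expression was not tested. These members were not among the genes on which the signal was measured. Sox11 and Klf12 also had means of 4.12 and 3.24 RPKM in HC11, and Klf15 reached a mean of only 4.89 in C57MG.

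Differences between lines were tested on the log2(RPKM + 1) scale with limma over all 10759 genes that reached 1 RPKM in at least 2 libraries, and all adjusted p-values below are from that fit with Benjamini-Hochberg adjustment at a threshold of 0.05. A difference on this scale understates the change of low genes. With a pseudocount of 0.1 in place of 1, 22 differences in 11 members (Foxf1, Foxj1, Foxn1, Foxn3, Klf2, Klf7, Klf11, Klf12, Klf15, Sox11 and Sox21) were over 1.5 times larger, in the same direction. Of the 44 members 41 were tested, and Sox5, Sox6 and Klf8 were too low. Of the 41, 4 met the minimum through 1 line only (Foxj1 and Klf2 in HC11, Foxn1 in BC44 and Klf15 in C57MG), so a difference was built into their entry.

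Between BC44 and HC11, 22 of the 41 tested members passed (53.7%), beside 47.7% of all tested genes. Of these 13 were higher in BC44 and 9 in HC11, beside 24.7% and 23.0% of all genes. Between BC44 and C57MG 30 of 41 passed (73.2%), beside 71.7% of all genes. Here 22 were higher in BC44 and 8 in C57MG, where all genes gave 37.5% and 34.1%. Between HC11 and C57MG 32 of 41 passed (78.0%), beside 70.5% of all genes. There 22 were higher in HC11 and 10 in C57MG, where all genes gave 37.4% and 33.2%. The share of members that passed was thus near the background in each contrast. Without the 4 members that met the minimum through 1 line, 19, 28 and 28 of 37 passed in the same order of contrasts. Passing differences of at least 1 on the log2 scale were counted in 8, 15 and 14 of the 41 members, beside 12.5%, 29.8% and 27.0% of all genes. Without the same 4 members these counts were 6, 13 and 11 of 37.

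**Figure D1:**
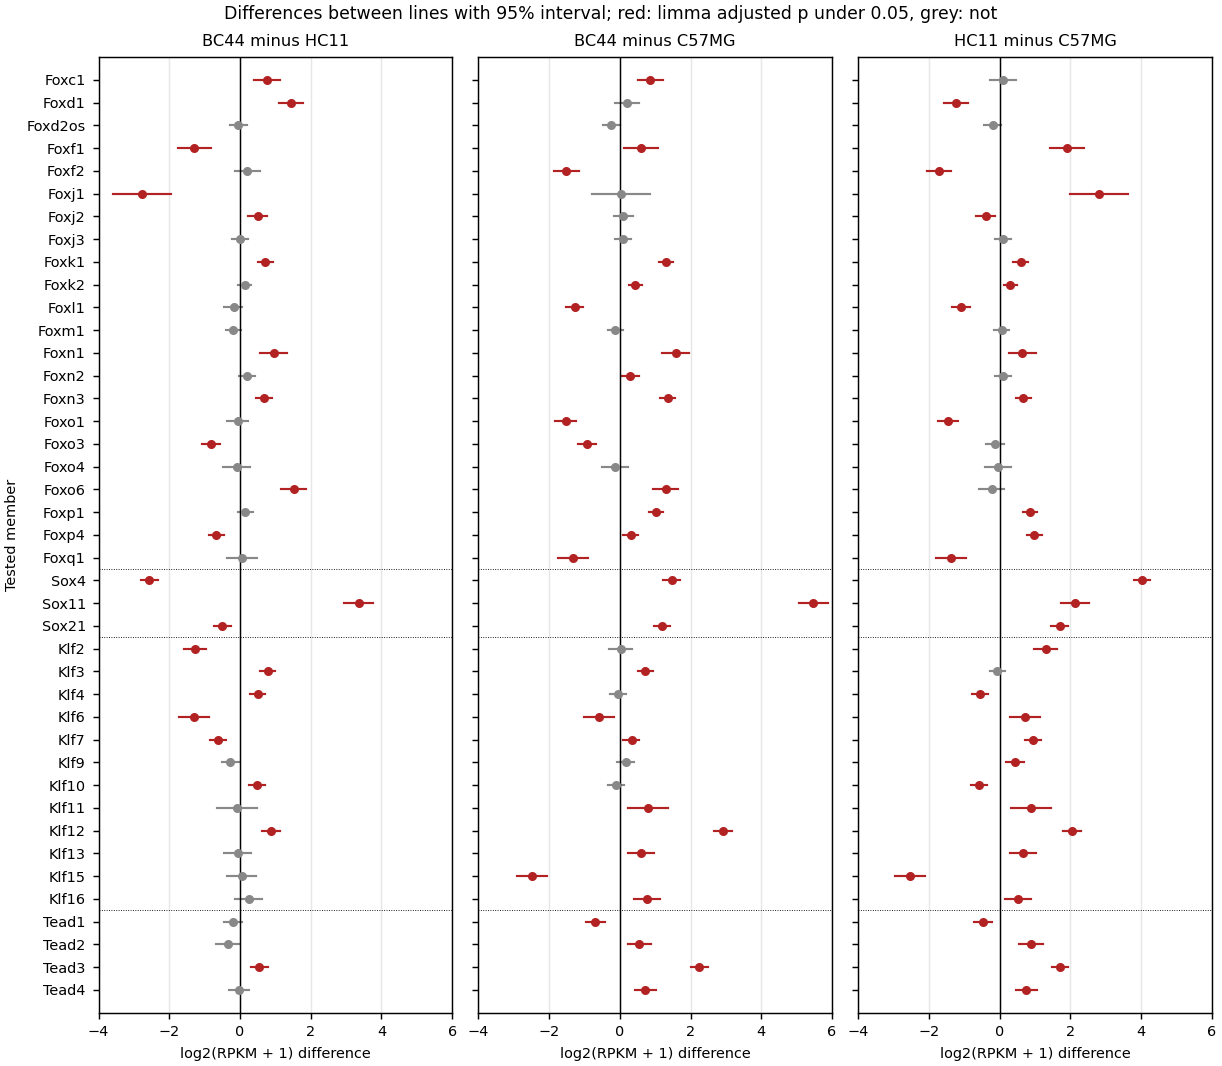
Differences in log2(RPKM + 1) between lines for the 41 tested members (vertical axis), with 95% intervals, in the 3 contrasts; red points have a limma adjusted p under 0.05 and grey points do not. Sox11 lies farthest to the right in BC44 minus C57MG (5.47), and Klf15 farthest to the left in both contrasts with C57MG (-2.48 and -2.53).

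The median difference of the members was -0.01 for BC44 minus HC11, 0.31 for BC44 minus C57MG and 0.44 for HC11 minus C57MG, while the medians of all genes were 0.02, 0.04 and 0.03. Counting libraries without a test, both C57MG libraries lay below the other 4 for 22 of the 44 members (50.0%), beside 36.3% of all listed genes, and above them for 8 (18.2%), beside 32.3%. The 8 were Foxf2, Foxl1, Foxo1, Foxo3, Foxq1, Klf15, Tead1 and the non-coding Foxd2os. Both BC44 libraries lay above the others for 16 members (36.4%), beside 23.8% of all genes, and below for 4 (9.09%), beside 19.7%. Both HC11 libraries lay above for 12 (27.3%), beside 19.1%, and below for 5 (11.4%), beside 18.6%.

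**Figure D2:**
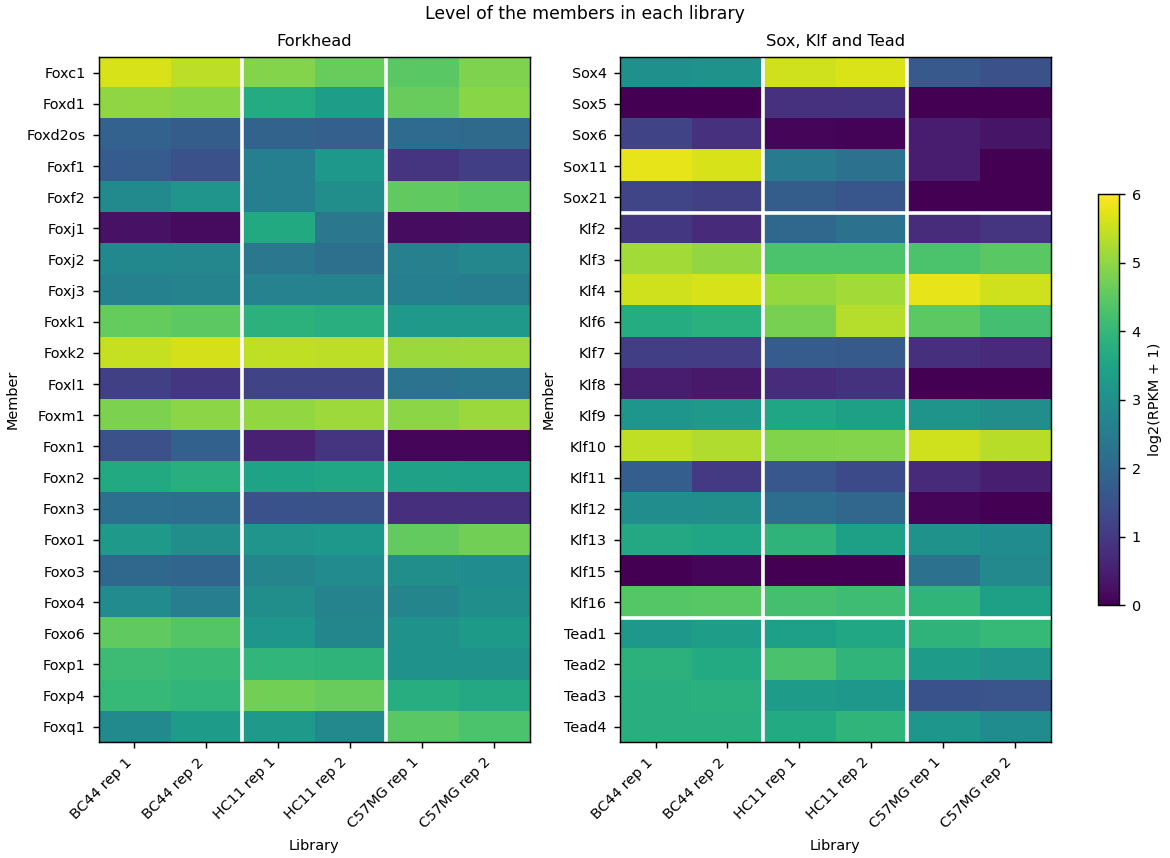
Level of each of the 44 members, as log2(RPKM + 1) in colour, in the 6 libraries (columns); forkhead genes are on the left and Sox, Klf and Tead genes on the right, and white lines separate lines and families. Sox11 is bright in the BC44 columns, Sox4 in the HC11 columns, and Klf15 is above 0 mainly in the C57MG columns.

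The Sox members, which leave out Sox9, changed their make-up from line to line. All 3 tested members, Sox4, Sox11 and Sox21, passed in all 3 contrasts, in which 47.7%, 71.7% and 70.5% of all genes did, so that the count of these few genes sets nothing apart. Each was higher in BC44 and in HC11 than in C57MG. The lines BC44 and HC11 held similar totals of the listed members, made of different genes. The 5 Sox members summed to 63.6 and 58.0 RPKM in BC44, 54.4 and 55.9 in HC11, against 2.98 and 2.08 in C57MG. Sox11 made up 84.6% and 83.6% of the BC44 sums, and Sox4 made up 85.6% and 88.1% of the HC11 sums and 73.6% and 87.7% of the small C57MG sums.

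Sox4 and Sox11 are close relatives of the SoxC group, known from neural and mesenchymal progenitors and from tumours. Sox11 was at 53.8 and 48.5 RPKM in BC44, 4.52 and 3.71 in HC11, against 0.385 and 0 in C57MG. BC44 stood above the others without overlap, by a ratio of mean levels of 12.4 over HC11. The log2 difference was 3.35 (SE 0.17, limma adjusted p = 7.29e-06). Against C57MG the difference was 5.47 for BC44 (SE 0.17, adjusted p = 2.86e-07) and 2.12 for HC11 (SE 0.17, adjusted p = 2.28e-05). The value in C57MG replicate 1, an estimated 58 reads, was 0.752% of the BC44 mean, the size of the small signal of BC44 genes in that library.

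Sox4 ordered BC44 and HC11 the other way. It was at 7.10 and 7.47 RPKM in BC44, 46.6 and 49.3 in HC11, and at 2.19 and 1.83 in C57MG. HC11 stood 6.58 times above BC44 and 23.8 times above C57MG in mean level. The log2 difference of BC44 from HC11 was -2.56 (SE 0.10, adjusted p = 2.86e-06), and that of HC11 from C57MG was 4.02 (SE 0.10, adjusted p = 1.97e-07). BC44 in turn exceeded C57MG by 1.46 (SE 0.10, adjusted p = 9.1e-06). No library of one line overlapped with another.

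Sox21, a repressor of the SoxB2 group, followed Sox4 in order at a much lower level. It was at 1.37 and 1.21 RPKM in BC44, 2.41 and 2.06 in HC11, and listed at 0 in both C57MG libraries. With a floor of 3 reads per library for C57MG, BC44 was at least 27.2-fold higher and HC11 at least 47.1-fold higher. HC11 exceeded BC44 by 0.50 on the log2 scale (SE 0.10, adjusted p = 0.00557). The SoxD members Sox5 and Sox6, which lack an activation domain of their own, were below the minimum for testing. Sox5 was at 0.805 and 0.830 RPKM in HC11 and at 0 in the other 4 libraries, which puts HC11 at least 61.8-fold above BC44. Sox6 was at 1.36 and 0.822 RPKM in BC44, 0.0730 and 0.0470 in HC11, against 0.400 and 0.256 in C57MG.

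Of the listed genes for Sox partners, the effectors of Wnt signalling and their Tle corepressors, 6 of 7 were in the table. All 6 passed for BC44 with HC11 (BC44 higher in 4), 5 for BC44 with C57MG (BC44 higher in 3) and 4 for HC11 with C57MG (C57MG higher in all 4), beside 47.7%, 71.7% and 70.5% of all genes. The 5 became 3 without BC44 replicate 1 or C57MG replicate 1, and the 4 became 2 without C57MG replicate 2. Tcf7, a DNA-binding effector of beta-catenin, had means of 1.80 (BC44), 4.42 (HC11) and 14.6 RPKM (C57MG), opposite in order to Sox11. Tle3, a corepressor, was at 12.7 in BC44, 5.85 in HC11 and 6.85 in C57MG.

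**Figure D3:**
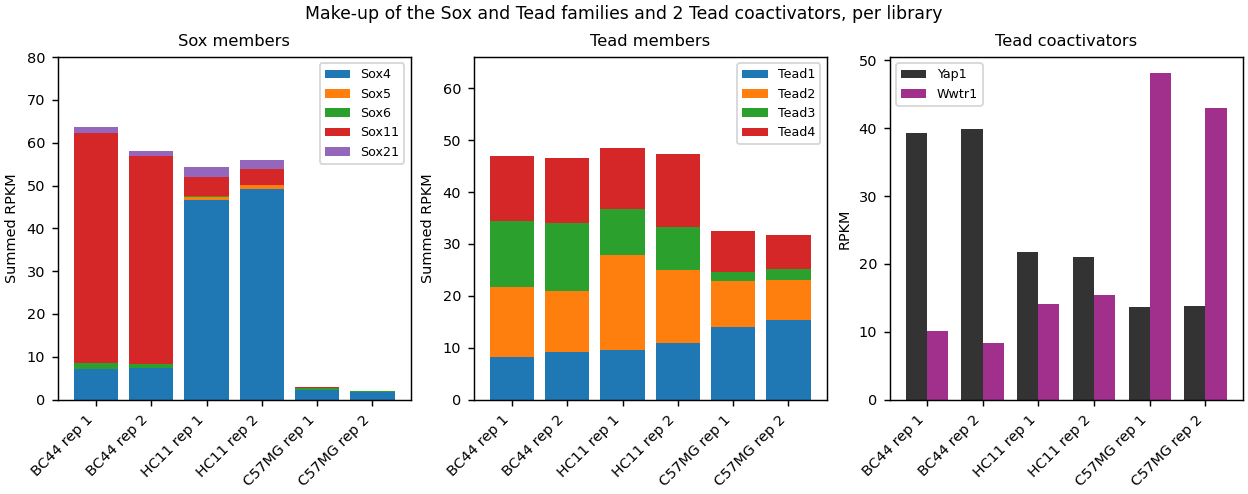
Stacked RPKM of the Sox members (left) and Tead members (middle) and RPKM of the Tead coactivators Yap1 and Wwtr1 (right), 1 bar or stack per library. The Sox stacks of BC44 and HC11 are of similar height with Sox11 and Sox4 exchanged, and Wwtr1 rises above Yap1 only in the C57MG bars.

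Among the forkhead genes, 11 of 22 passed for BC44 with HC11 (BC44 higher in 7), 15 for BC44 with C57MG (BC44 higher in 10) and 14 for HC11 with C57MG (HC11 higher in 8). Their median differences were 0.09, 0.15 and 0.08. The shares, 50.0%, 68.2% and 63.6%, were near those of all genes (47.7%, 71.7% and 70.5%). Without Foxj1 and Foxn1, which met the minimum through 1 line, 9, 14 and 12 of 20 passed and the median of HC11 minus C57MG was 0.01. The RPKM of the 21 coding forkhead genes summed to 289 and 285 in BC44, 249 and 233 in HC11, against 247 and 265 in C57MG. Single genes moved between lines in both directions.

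Foxf2 and Foxl1 were highest in C57MG, while Foxf1 was highest in HC11. Foxf2, which acts in gut and palate mesenchyme, was at 6.19 and 7.74 RPKM in BC44, 5.06 and 6.76 in HC11, and at 22.1 and 20.998 in C57MG. C57MG stood above the other 4 libraries, with log2 differences of -1.51 for BC44 (SE 0.15, adjusted p = 5.95e-05) and -1.72 for HC11 (SE 0.15, adjusted p = 3.4e-05). Foxl1, of the same mesenchymal type, was at 1.21 and 0.932 in BC44, 1.35 and 1.34 in HC11, against 3.91 and 4.12 in C57MG. Its differences from C57MG were -1.28 and -1.09 (SE 0.11 each, adjusted p = 2.48e-05 and 6.64e-05). Foxf1, also a factor of embryonic mesenchyme, was at 2.35 and 1.80 in BC44, 5.06 and 8.21 in HC11, and at 0.871 and 1.16 in C57MG, so that the line with the highest mesenchymal marker sum had the least. HC11 exceeded C57MG by 1.90 (SE 0.20, adjusted p = 0.000107) and BC44 by 1.29 (SE 0.20, adjusted p = 0.00176). The smaller excess of BC44 over C57MG, 0.61 (adjusted p = 0.028), was lost with quantile normalization and without any 1 of the 4 libraries of those lines (adjusted p up to 0.161).

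Foxf1 and Foxl1 are neighbours on chromosome 8, and Foxq1, Foxf2 and Foxc1 follow each other on chromosome 13. Foxq1, a factor linked to epithelial plasticity, was at 6.20 and 8.76 RPKM in BC44, 8.27 and 6.06 in HC11, against 20.98 and 18.8 in C57MG, the same order of C57MG above the rest as its neighbour Foxf2. The differences from C57MG were -1.32 for BC44 and -1.37 for HC11 (SE 0.18 each, adjusted p = 0.000373 and 0.00033). Foxc1, a regulator of mesenchyme and a marker of basal-like mammary tumours, had another order, with means of 45.1 in BC44, 26.1 in HC11 and 24.5 in C57MG. BC44 exceeded C57MG by 0.86 (adjusted p = 0.0016) and HC11 by 0.77 (adjusted p = 0.0055), the second of which was lost without BC44 replicate 1 (adjusted p = 0.052). In the contrasts with C57MG, the neighbours Foxq1 and Foxf2 therefore shared their direction, and Foxf1 and Foxl1 differed in it. For BC44 minus HC11, Foxf1 and Foxl1 had the same sign (-1.29 and -0.18), though only Foxf1 passed. Foxf2 and Foxc1 differed in direction for BC44 minus C57MG. In a further pair of neighbours, Tead4 and Foxm1 on chromosome 6, Foxm1 passed in no contrast.

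Foxd1, known from the stroma of the kidney, was low in HC11 alone. It was at 31.3 and 29.4 RPKM in BC44, 11.9 and 9.27 in HC11, and at 23.5 and 29.4 in C57MG. HC11 was below BC44 by 1.44 (SE 0.14, adjusted p = 0.000178) and below C57MG by 1.24 (SE 0.14, adjusted p = 0.000154). The interval of BC44 minus C57MG ran from -0.13 to 0.54.

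Foxj1 switches on the genes of motile cilia. It was at 0.235 and 0.131 RPKM in BC44, 11.6 and 4.18 in HC11, against 0.148 and 0.173 in C57MG. The HC11 libraries, an estimated 560 and 155 reads, differed from each other by more than those of any other line but lay far above all 4 others. The differences were -2.77 for BC44 minus HC11 (SE 0.35, adjusted p = 0.000583) and 2.80 for HC11 minus C57MG (SE 0.35, adjusted p = 0.000239). Foxj1 met the minimum through HC11 only, so a difference was built into its entry. The values in the other 4 libraries were 1.67% to 2.99% of the HC11 mean, above the median signal of HC11 genes there. The lowest, 1.67% in BC44 replicate 2, was under the upper quartile of that signal in the same library (1.91%).

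Foxn1, Foxn3 and Foxk1 shared an order, with BC44 above HC11 and HC11 above C57MG. Foxn1, the factor of thymic and hair follicle epithelium, was at 1.79 and 2.66 RPKM in BC44, 0.469 and 0.869 in HC11, and at 0.0520 and 0.0810 in C57MG, the last an estimated 3 and 4 reads. BC44 exceeded C57MG by 1.58 (SE 0.16, adjusted p = 7.56e-05) and HC11 by 0.95 (SE 0.16, adjusted p = 0.00259). Foxn1 met the minimum through BC44 only, so a difference was built into its entry. HC11 exceeded C57MG by 0.64 (adjusted p = 0.00956), which was lost without HC11 replicate 2 (adjusted p = 0.0561) and with quantile normalization (0.39, adjusted p = 0.10). Foxn3, a repressor linked to the DNA damage checkpoint, fell stepwise from 3.544 and 3.499 in BC44 to 1.85 and 1.80 in HC11 and 0.773 and 0.781 in C57MG. Its differences were 0.68 and 0.67 for the neighbouring steps (SE 0.09 each, adjusted p = 0.000883 and 0.000428). Foxk1, which with Foxk2 represses autophagy genes and responds to nutrients, showed the same order, with 22.8 and 21.5 in BC44, 13.6 and 12.7 in HC11, against 8.47 and 8.29 in C57MG. Its differences were 0.71 for BC44 minus HC11 and 0.59 for HC11 minus C57MG (SE 0.09 each, adjusted p = 0.000523 and 0.000607).

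Foxk2 had the highest mean level of the forkhead genes and varied far less. It was at 43.5 and 48.1 RPKM in BC44, 42.1 and 41.3 in HC11, against 33.4 and 33.8 in C57MG. BC44 exceeded C57MG by 0.43 (SE 0.08, adjusted p = 0.0018), while the excess of HC11 over C57MG, 0.30 (adjusted p = 0.011), was lost without either C57MG library (adjusted p up to 0.0611).

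The Foxp genes, which repress through their own dimers, parted. Foxp1 was at 16.2 and 15.5 RPKM in BC44, 14.4 and 13.9 in HC11, and at 7.43 and 7.31 in C57MG. It was lower in C57MG than in BC44 by 1.01 and than in HC11 by 0.86 (SE 0.09 each, adjusted p = 2.75e-05 and 7.72e-05). Foxp4 was instead highest in HC11, at 25.5 and 23.3, beside 15.3 and 14.5 in BC44 and 12.3 and 11.4 in C57MG. HC11 exceeded BC44 by 0.68 (adjusted p = 0.000833) and C57MG by 0.98 (adjusted p = 4.96e-05). The difference of BC44 from C57MG, 0.31 (adjusted p = 0.0175), was lost without BC44 replicate 1 or C57MG replicate 2 (adjusted p up to 0.119).

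The 4 Foxo members, the insulin-responsive group, had 4 different patterns. Foxo1 was at 8.56 and 6.79 RPKM in BC44, 7.81 and 8.26 in HC11, against 22.4 and 25.4 in C57MG. C57MG exceeded BC44 by 1.53 and HC11 by 1.46 (SE 0.12 each, adjusted p = 2.13e-05 and 3.14e-05). Foxo3 was lowest in BC44, with means of 3.01, 6.04 and 6.66 in BC44, HC11 and C57MG. BC44 was below HC11 by 0.81 (adjusted p = 0.000765) and below C57MG by 0.94 (adjusted p = 0.000142). Foxo6, which unlike its relatives stays mostly in the nucleus, was highest in BC44, at 22.2 and 20.01, beside 7.85 and 5.71 in HC11 and 7.47 and 8.63 in C57MG. BC44 exceeded HC11 by 1.52 and C57MG by 1.29 (SE 0.15 each, adjusted p = 0.000168 and 0.000139). Foxo4 ranged from 4.90 to 6.91 over the 6 libraries and passed in no contrast, and its 3 intervals lay between -0.51 and 0.33.

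Genes of the PI3K and Akt pathway, which controls the Foxo proteins, passed in 5, 7 and 8 of 10 cases in the contrasts BC44 with HC11, BC44 with C57MG and HC11 with C57MG, shares close to the 47.7%, 71.7% and 70.5% of all genes. The 5 became 1 without BC44 replicate 2, and 3 without either HC11 library or C57MG replicate 2. In the last 2 contrasts 5 and 6 were higher in C57MG. Sgk1, a kinase that phosphorylates Foxo proteins, had means of 14.2 in BC44, 25.5 in HC11 and 115 RPKM in C57MG. Akt1 was at 83.0 to 92.9 in the 3 lines and passed in no contrast. Of 10 listed Foxo target genes 6, 6 and 7 passed, near the share of all genes, and those in the contrasts with C57MG were split in direction, 3 higher in BC44 and 3 in C57MG, and 3 higher in HC11 and 4 in C57MG. Sesn1, a stress-induced regulator of mTORC1, was highest in C57MG, with means of 6.67, 3.07 and 28.3 in BC44, HC11 and C57MG. Trib1, a pseudokinase, was at 4.08 in BC44, 14.9 in HC11 and 15.4 in C57MG, the order of Foxo3.

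Of the remaining forkhead genes, Foxm1, which drives mitotic genes, ranged from 27.3 to 34.1 RPKM over the 6 libraries and passed in no contrast. Its 3 intervals lay between -0.40 and 0.27. Of 8 listed Foxm1 target genes 2, 3 and 3 passed in the 3 contrasts, below the share of all genes in each, and the 2 became 1 without either BC44 library or HC11 replicate 1. Foxj3 ranged from 4.80 to 5.45 and also passed in none. Foxj2 ranged from 3.61 to 6.01 and was lowest in HC11, by 0.50 against BC44 (adjusted p = 0.00935) and 0.40 against C57MG (adjusted p = 0.0153). The first was lost without BC44 replicate 1 and the second without HC11 replicate 2 or C57MG replicate 2 (adjusted p up to 0.126). Foxn2 ranged from 9.43 to 12.8 and passed between BC44 and C57MG only (0.30, adjusted p = 0.0241), a call lost without BC44 replicate 2 or either C57MG library (adjusted p up to 0.135). The non-coding Foxd2os ranged from 2.38 to 3.26. It passed in none of the contrasts, but did for BC44 minus C57MG (-0.25, adjusted p = 0.06) under 4 alternatives: median-ratio scaling, no variance trend, and without either HC11 library (adjusted p from 0.0402 to 0.0496). Whether the counting used the strand is not given in the sources used here, so reads of Foxd2os and of a gene opposite to it cannot be told apart.

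**Figure D4:**
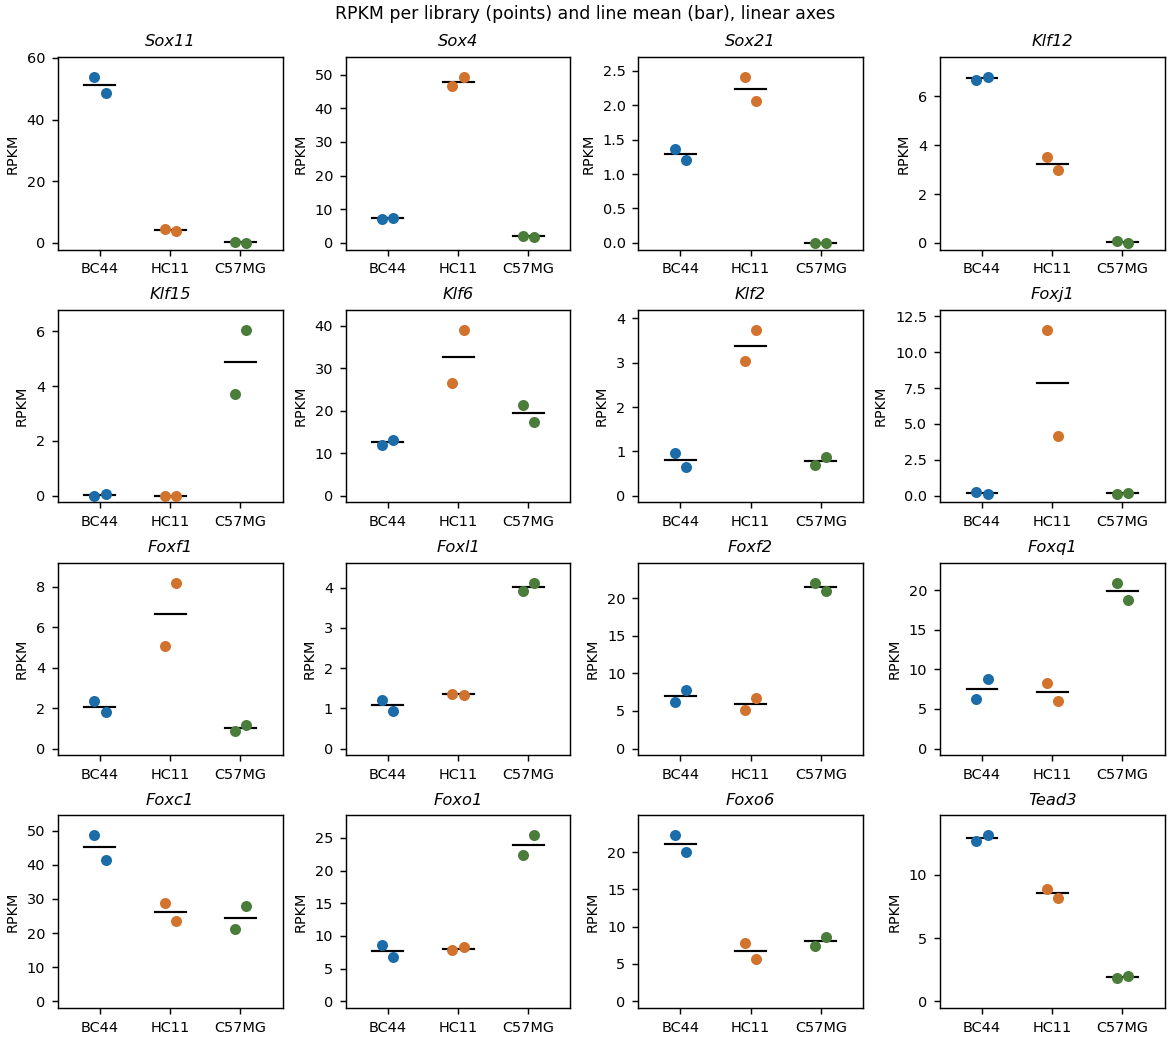
RPKM per library (points) and line mean (horizontal bars) for 16 members on linear axes that start near 0, each panel with its own scale. Foxj1 and Klf15 are near 0 in 2 of the 3 lines, and the 2 HC11 points of Foxj1 (11.6 and 4.18) are far apart.

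Of 12 tested Klf genes 7 passed for BC44 with HC11 (BC44 higher in 4), 8 for BC44 with C57MG (BC44 higher in 6) and 11 for HC11 with C57MG (HC11 higher in 8). The shares were 58.3%, 66.7% and 91.7%, beside 47.7%, 71.7% and 70.5% of all genes. The median differences were -0.01, 0.24 and 0.59. Without Klf2 and Klf15, which met the minimum through 1 line, 6, 7 and 9 of 10 passed, with medians of 0.09, 0.46 and 0.59. The counts against C57MG rested partly on single libraries. The 8 became 4 without BC44 replicate 1 and 5 without C57MG replicate 2, and the 11 became 6 without C57MG replicate 2. The summed RPKM of the 13 Klf members was 187 and 181 in BC44, 160 and 169 in HC11, against 175 and 156 in C57MG.

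The largest Klf contrasts were those of Klf12 and Klf15, which were each close to absent in a line. Klf12, a repressor that recruits CtBP proteins, was at 6.67 and 6.79 RPKM in BC44, 3.51 and 2.97 in HC11, and at 0.0600 and 0 in C57MG. BC44 exceeded HC11 by 0.87 (SE 0.11, adjusted p = 0.000543). The differences from C57MG were 2.91 for BC44 and 2.04 for HC11 (SE 0.11 each, adjusted p = 4.22e-07 and 2.58e-06). The value in C57MG replicate 1 was an estimated 8 reads and 0.891% of the BC44 mean, again the size of the small signal of BC44 genes in that library. It was 1.85% of the HC11 mean, above the median signal of HC11 genes there (0.0105%). Klf15, a glucocorticoid-induced regulator of metabolism, had the reverse distribution. It was at 0 and 0.0680 in BC44, 0 and 0 in HC11, against 3.72 and 6.06 in C57MG. C57MG was at least 73.0-fold above HC11, with a floor of 3 reads per library for HC11. The log2 differences were -2.48 for BC44 minus C57MG and -2.53 for HC11 minus C57MG (SE 0.18 each, adjusted p = 1.03e-05 and 1.09e-05). Klf15 met the minimum through C57MG only, so a difference was built into its entry. The BC44 value was an estimated 3 reads and 1.39% of the C57MG mean, within the size of the small signal of C57MG genes in that library. Klf8, of the same CtBP-binding type as Klf12, was below the minimum for testing at 0.368 and 0.330 in BC44, 0.693 and 0.845 in HC11 and 0 in both C57MG libraries.

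Klf2 and Klf6 were highest in HC11. Klf2, best known as a flow-induced factor of endothelium, was at 0.963 and 0.652 RPKM in BC44, 3.03 and 3.74 in HC11, and at 0.689 and 0.878 in C57MG. HC11 exceeded BC44 by 1.28 and C57MG by 1.30 (SE 0.13 each, adjusted p = 0.000235 and 8.7e-05), and the libraries of the other 2 lines overlapped. Klf2 met the minimum through HC11 only, so a difference was built into its entry. Klf6, an early-response gene, was at 12.1 and 13.1 in BC44, 26.5 and 39.1 in HC11, against 21.4 and 17.4 in C57MG. HC11 exceeded BC44 by 1.29 (SE 0.18, adjusted p = 0.000977). The difference of HC11 from C57MG, 0.71 (adjusted p = 0.00935), was lost without C57MG replicate 2 (adjusted p = 0.0671) and came to 0.44 without HC11 replicate 2. That of BC44 from C57MG, -0.58 (adjusted p = 0.0212), was lost without either BC44 library or C57MG replicate 1 (adjusted p up to 0.130). Klf7, a low-level factor of neurons and fat cells, followed HC11 too, with means of 1.15 in BC44, 2.30 in HC11 and 0.720 in C57MG. HC11 exceeded BC44 by 0.62 (adjusted p = 0.00165) and C57MG by 0.94 (adjusted p = 8.2e-05). The excess of BC44 over C57MG, 0.33 (adjusted p = 0.0174), was lost without BC44 replicate 1 or C57MG replicate 2, and with quantile normalization (adjusted p up to 0.107).

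Klf4 and Klf10 were lowest in HC11. Klf4, a factor of epithelial barriers and of pluripotency, had the highest mean of the Klf members, which leave out Klf5. It was at 46.7 and 48.5 RPKM in BC44, 32.1 and 34.8 in HC11, and at 53.6 and 46.0 in C57MG. HC11 was below BC44 by 0.50 and below C57MG by 0.56 (SE 0.10 each, adjusted p = 0.0043 and 0.00128). The interval of BC44 minus C57MG ran from -0.29 to 0.16. Klf10, a gene induced by TGF-beta, had means of 40.1, 28.4 and 43.4 in BC44, HC11 and C57MG. HC11 was below them by 0.48 and 0.59 (adjusted p = 0.00508 and 0.000977). Klf3, a CtBP-binding repressor, was highest in BC44, by 0.79 over HC11 and 0.72 over C57MG (adjusted p = 0.000395 and 0.000245), with means of 33.2, 18.8 and 19.8 in BC44, HC11 and C57MG.

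Klf9, Klf11, Klf13 and Klf16, repressors that recruit Sin3a, each had their lowest mean in C57MG. Klf16 fell from 20.5 RPKM in BC44 to 11.9 in C57MG, by 0.76 (adjusted p = 0.00338), which came to 0.50 without C57MG replicate 2. Klf11 was at 2.46 and 1.03 in BC44, and its excess over C57MG, 0.79, came to 0.40 without BC44 replicate 1 (adjusted p = 0.0855). It had means of 1.82 in HC11 and 0.540 in C57MG. Klf13 had means of 11.0, 11.8 and 7.01, and Klf9 of 8.18, 10.1 and 7.22 in BC44, HC11 and C57MG. Klf11, Klf13 and Klf16 passed in both contrasts with C57MG, and Klf9 in that with HC11. Of these 7 calls, 6 were lost without C57MG replicate 2 (adjusted p from 0.053 to 0.108), the exception being Klf16 for BC44 minus C57MG, and none changed direction under the alternatives run.

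The Sp factors, relatives of the Klf proteins that bind the same boxes, passed in 4, 3 and 5 of 5 cases, where 47.7%, 71.7% and 70.5% of all genes did. The 4 became 0 without HC11 replicate 2, 1 without either BC44 library and 2 without either C57MG library, and the 5 became 2 or 3 without HC11 replicate 2 or either C57MG library. Sp6, known from tooth and skin epithelium, was at 6.16 and 6.36 RPKM in BC44, 5.08 and 4.52 in HC11, against 0.0860 and 0.152 in C57MG. Its differences from C57MG were 2.70 and 2.37 (adjusted p = 4.9e-07 and 1.02e-06), which resembled those of Klf12 in direction. Sp3 was instead higher in C57MG than in BC44 and HC11, with means of 37.5, 25.6 and 20.7. Of 7 listed corepressors and ligases of Klf proteins 1, 7 and 6 passed. Wwp1, a ubiquitin ligase, had means of 15.0, 16.8 and 32.4 in BC44, HC11 and C57MG, and Ctbp2, the partner of Klf3, Klf8 and Klf12, of 14.0, 12.8 and 8.43.

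In C57MG, Tead2, Tead3 and Tead4 were lower and Tead1 was higher than in either other line. All 4 members passed in both contrasts with C57MG, in which 71.7% and 70.5% of all genes did. Between BC44 and HC11 only Tead3 passed, and the median difference was -0.12. The number became 2 without HC11 replicate 2, when Tead2 also passed (adjusted p = 0.0325). The 4 levels summed to 47.0 and 46.6 RPKM in BC44, 48.4 and 47.3 in HC11, against 32.5 and 31.7 in C57MG. In BC44 the 4 genes took fairly even parts, while Tead1 made up 42.8% and 48.4% of the C57MG sums.

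Tead3, well known from placenta, had the strongest contrast. It was at 12.7 and 13.1 RPKM in BC44, 8.90 and 8.17 in HC11, and at 1.84 and 2.01 in C57MG. The 3 lines did not overlap, and mean levels in BC44 and HC11 were 6.72 and 4.44 times those in C57MG. The differences were 2.25 for BC44 minus C57MG, 1.71 for HC11 minus C57MG and 0.55 for BC44 minus HC11 (SE 0.10 each, adjusted p = 8.99e-07, 4.32e-06 and 0.00352). Tead2, prominent in early embryos, had the highest mean of the family, with 13.5 and 11.7 in BC44, 18.4 and 14.1 in HC11, against 8.87 and 7.75 in C57MG. HC11 exceeded C57MG by 0.88 (SE 0.14, adjusted p = 0.000947). BC44 exceeded C57MG by 0.55 (adjusted p = 0.0095), which was lost without BC44 replicate 1 or C57MG replicate 2 (adjusted p up to 0.0717). The interval of BC44 minus HC11 ran from -0.67 to 0.00.

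Tead4, required for the trophectoderm, was at 12.6 and 12.6 RPKM in BC44, 11.7 and 14.1 in HC11, against 7.89 and 6.58 in C57MG. It was lower in C57MG by 0.72 and 0.75 (SE 0.12 each, adjusted p = 0.00124 and 0.00107). Tead1, the factor of heart and muscle genes, was higher in C57MG, at 13.9 and 15.3, than in BC44, at 8.18 and 9.22, and HC11, at 9.48 and 10.9. The differences were -0.69 (SE 0.11, adjusted p = 0.00087) and -0.48 (SE 0.11, adjusted p = 0.00548), the second of which was lost without C57MG replicate 2 (adjusted p = 0.0543).

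The Tead coactivators changed over between the lines, as the stacked bars by library show. Yap1 was at 39.3 and 39.8 RPKM in BC44, 21.8 and 21.04 in HC11, and at 13.7 and 13.8 in C57MG. Wwtr1 ran the other way, at 10.1 and 8.37 in BC44, 14.1 and 15.4 in HC11, against 48.1 and 43.0 in C57MG. Both passed in all 3 contrasts, with differences of BC44 from C57MG of 1.46 for Yap1 (adjusted p = 2.05e-06) and -2.19 for Wwtr1 (adjusted p = 1.98e-06). The cofactor Vgll3 was at 13.1 to 27.2 in the 6 libraries and Vgll4 at 6.76 to 9.67. Vgll3 passed for HC11 minus C57MG (0.56, adjusted p = 0.048), a call lost under 12 of 15 alternatives.

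Of 12 Hippo kinases and scaffolds 4 passed between BC44 and HC11, and 10 in each contrast with C57MG (7 lower in C57MG and 3 higher), beside 47.7%, 71.7% and 70.5% of all genes. Wwc1, a scaffold that activates the Lats kinases, had means of 30.9, 34.7 and 1.61 RPKM in BC44, HC11 and C57MG. Nf2, the Merlin scaffold, was at 35.6, 33.8 and 12.1. Of 8 listed Yap and Tead target genes 6 were in the table, and Ccn1 (Cyr61) and Ccn2 (Ctgf) were not matched. All 6 passed in each contrast, and 5 or 6 under the alternatives, with no shared order of the lines. Ankrd1 was at 0.194 and 0.0970 in BC44, 145 and 202 in HC11, and at 10.9 and 12.5 in C57MG. Axl, a receptor kinase, was highest in C57MG, with means of 25.2, 70.2 and 115 in BC44, HC11 and C57MG, and Ajuba was highest in BC44, with 93.1, 52.7 and 27.0.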

How the data were processed

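Per the submitters' processing notes, reads were aligned with STAR to build mm9; versions, the read counter, the gene lengths and the annotation are not given in the sources used here. RPKM values for 6 libraries and 11417 genes were deposited by the authors as 1 table and used as they stand. Symbols and gene identifiers all matched GENCODE M21 (build GRCm38), used only for chromosomes and gene order, exon lengths and gene types. Coordinates and sequences of promoters are from RefSeq GRCm38.p6, not the authors' build.

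The test was limma (version 3.58.1, under R 4.3.3; a linear model with moderated variances that follow the mean) on log2(RPKM + 1) of the 10759 genes with at least 1 RPKM in at least 2 libraries. The spread was estimated over all 6 libraries. Tests were two-sided, with Benjamini-Hochberg adjustment over all tested genes of a contrast. The script was tested on simulated data. Tables and figures used Python 3.11.15, numpy 2.4.6, pandas 2.3.3 and matplotlib 3.10.9.

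Depth per library was estimated from the steps between low values: 76.6% to 83.5% of 129 to 229 low values lay within 0.15 read of a whole number, where spacing alone gives 30.0%. It came to 14430000 and 17380000 reads for BC44, 18480000 and 14180000 for HC11, and 18160000 and 15380000 for C57MG. Read numbers and floors are estimates and cover counting error only.

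The small signal, in a library, of genes abundant in another line was measured on selected genes. These had at least 20 RPKM in that line and at most 2% of that level in the third line. They also had at most 5% of it in the other replicate of the library examined. Every member is named. Values in every library are given for members that passed with a log2 difference of at least 1 in some contrast and for the member of each family with the highest mean, and for some others. Sp6, Tcf7, Tle3, Sgk1, Akt1 and the other pathway genes given by value were chosen from the lists after their values were seen. The members, lists and tests were chosen with earlier results of these data known. The 4 promoters printed were also chosen after their levels were seen.

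The member calls, family counts, pathway gene calls and pathway counts were recomputed with a smaller pseudocount (0.1), without the filter, with a filter at a mean RPKM of 5, after median-ratio scaling or quantile normalization, in fits of the 4 compared libraries alone, without the variance trend, with robust variances, with the replicate number as a block, and without each library in turn.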

Additional observations from a re-analysis of the deposited data

How the results depend on the processing

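Of 84 member differences that passed, 65 passed under each of the 15 alternatives that tested them, 19 were lost under at least 1, 16 of these only when a library was left out, and 0 changed direction. A further 10 member differences were gained under at least 1 alternative, those of Sox5, Sox6 and Klf8 without a filter and single ones of Tead2, Foxd2os and Foxo6. The 37 passing differences of at least 1 on the log2 scale, in 20 members, were not lost under any alternative run. Counts of passing members moved by over 1.5 times as follows. Without a filter, 5 Sox members passed between BC44 and HC11, since Sox5 and Sox6 were then tested. With a mean of at least 5 RPKM, 29 members were tested in place of 41, among them 16 forkhead and 7 Klf genes. Between BC44 and HC11 14 members then passed (7 forkhead and 4 Klf). Between BC44 and C57MG 4 Klf members passed, and between HC11 and C57MG 21 members (9 forkhead and 6 Klf). These lower counts come from fewer tested members. In both contrasts with BC44, the share of tested members that passed was near that of all genes under this filter. With 1 library left out, the range was 1 to 2 Tead members between BC44 and HC11, 4 to 8 Klf members between BC44 and C57MG and 6 to 11 Klf members between HC11 and C57MG. The lone library of a line was then assumed to vary like the others.

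Across genes, the deviations of same-numbered libraries from their line means correlated at 0.354 for BC44 with HC11. They correlated at -0.039 for BC44 with C57MG and at 0.038 for HC11 with C57MG. Same-numbered libraries thus deviated together to some extent in BC44 and HC11, and hardly with those of C57MG. The main fit did not use the replicate number. With the replicate number as a block, 2 Tead members passed between BC44 and HC11, Tead2 being gained (adjusted p = 0.024), and 0 member calls were lost.

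A pseudocount of 0.1 raised the differences of low members by over 1.5 times, such as Sox21 in HC11 minus C57MG from 1.69 to 4.54, Foxn1 in BC44 minus C57MG from 1.58 to 3.78, Klf15 in BC44 minus C57MG from -2.48 to -5.23, Klf12 in BC44 minus C57MG from 2.91 to 5.76 and Foxj1 in HC11 minus C57MG from 2.80 to 4.76. Depth limits the lowest values: 3 reads are 0.0217 RPKM for Sox11 and 0.0682 for Klf15. Scaling moved the median difference of all genes by less than 0.1. Of 137 passing differences of pathway genes, 35 were lost under at least 1 alternative and 0 changed direction.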
